A study of Mus musculus with 16 samples.

Results

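The genes described here encode CaMKII and the calcineurin pathway: the kinase genes Camk2a, Camk2b, Camk2d and Camk2g, the calcineurin subunit genes Ppp3ca, Ppp3cb and Ppp3r1, the calcineurin regulators Rcan1 and Rcan2, and the transcription factor Nfatc3. They were taken by symbol from a table of read counts per gene, and all 10 were found among its 54108 named genes. The samples were heart ventricles of 8-week-old mice. Cardiac knockout (cKO) mice carried Myh6-Cre and Rbpms fl/fl, so that the RNA-binding protein gene Rbpms is deleted where the Myh6 promoter drives Cre, in cardiomyocytes. Control mice carried Rbpms fl/fl without Cre, so an effect of Cre itself and an effect of the deletion cannot be told apart. Each genotype had 4 libraries, of which replicate 3 was female and the other 3 were male, and ventricles of newborn mice of the series were not analysed here.

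CaMKII is a multi-subunit protein kinase switched on by calcium bound to calmodulin, and its subunits come from separate genes that can assemble together. The delta form is known as the main one in heart and the alpha and beta forms are best known from brain. Calcineurin is a phosphatase switched on by the same signal. It has a catalytic A subunit (Ppp3ca, Ppp3cb) and a regulatory B subunit (Ppp3r1), and it removes phosphate from NFAT factors, which then enter the nucleus. In heart muscle both enzymes are known for their part in excitation-contraction coupling and in hypertrophic growth. RCAN proteins bind calcineurin and can restrain it.

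Of the 10 genes, Camk2a fell and Rcan1 rose in cKO ventricles, and 8 did not pass the threshold. That is 2 of 10, where 19.3% of all 16051 tested genes passed (9.64% higher and 9.64% lower in cKO), so the share that passed is near that of all genes. The threshold was an adjusted p under 0.05 in edgeR's quasi-likelihood test, with Benjamini-Hochberg adjustment over all tested genes. The median log2 fold change of the 10 genes was -0.04, and that of all tested genes was 0.0053. The 8 genes that did not pass had log2 fold changes of -0.16 to 0.35. All 10 genes passed the filter on low counts, and their counts per library ran from 308 for Camk2b to 17609 for Rcan2.

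Total counts were 20190334 to 24540433 per library, and levels are given as CPM, counts scaled to a common library size, after TMM scaling for library composition. Rbpms measured 26.9 to 38.8 CPM in cKO libraries, against 102 to 193 CPM in controls (adjusted p = 3.54e-05, edgeR), so no library went against its label. Cardiomyocyte markers were abundant in every library, with a sum over 10 markers of 33047 to 38555 CPM in cKO and 37731 to 49086 CPM in controls, and 3 of the 10 fell and none rose. All 9 fibroblast markers rose, with sums of 3468 to 4632 CPM in cKO and 1427 to 2066 CPM in controls. In whole ventricle, fewer cells of a type and less RNA per cell cannot be told apart, and the part of these marker changes in the results below was not tested.

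**Figure D1:**
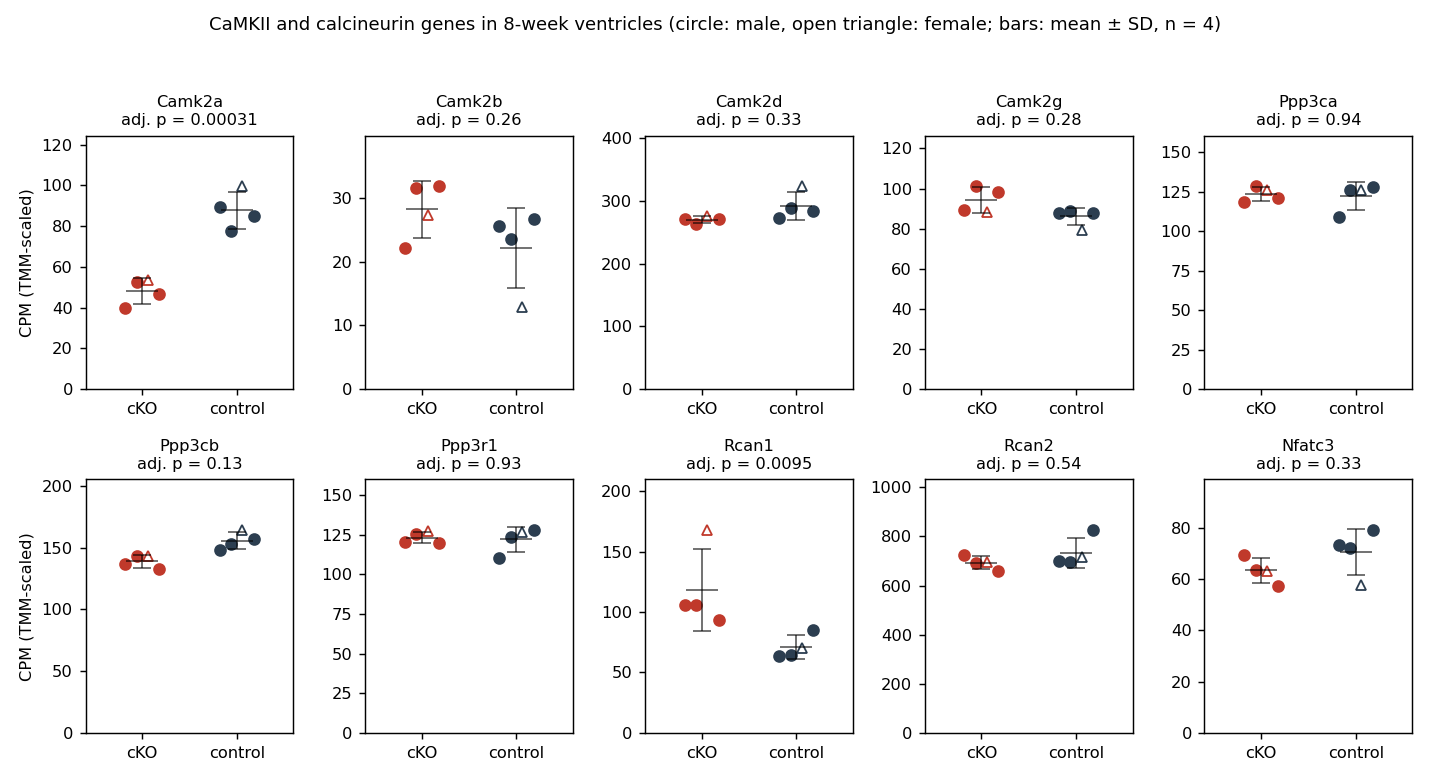
TMM-scaled CPM of the 10 genes in each library, cKO on the left and control on the right of each panel, with the mean and SD of 4 libraries. Circles are male and open triangles female libraries. Camk2a is lower in all cKO libraries (39.7 to 53.5 CPM, against 77.6 to 99.6 CPM in controls) and Rcan1 is higher in all of them (93.2 to 168 CPM, against 63.5 to 85.0 CPM).

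Rcan1 has a pair of RefSeq start-site windows, and they are shown because the gene's counts pool transcripts from both with those of other annotated starts. The gene lies on the minus strand of chromosome 16 (92391953 to 92470867, GRCm38). Annotated transcripts near the upstream start have coding lengths of 753 bases, the longest of the gene, and of 594 bases. The internal start lies 66.1 kb further along the gene and opens a form with a coding length of 594 bases. The promoter of the internal start is known to respond to calcineurin and NFAT. Each window holds 300 bases on the minus strand, written 5′ to 3′, with the start site followed by its last 50 bases. Capitals mark GGAAA, the core letters of the NFAT binding site, or its reverse complement TTTCC.
Rcan1 internal start, chr16:92400029-92400328: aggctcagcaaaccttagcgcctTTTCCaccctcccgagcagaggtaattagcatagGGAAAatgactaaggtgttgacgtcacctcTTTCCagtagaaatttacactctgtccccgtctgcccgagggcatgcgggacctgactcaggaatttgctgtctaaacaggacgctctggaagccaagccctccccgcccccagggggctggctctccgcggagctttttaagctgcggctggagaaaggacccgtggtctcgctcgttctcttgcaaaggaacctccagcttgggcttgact
Rcan1 upstream start, chr16:92466120-92466419: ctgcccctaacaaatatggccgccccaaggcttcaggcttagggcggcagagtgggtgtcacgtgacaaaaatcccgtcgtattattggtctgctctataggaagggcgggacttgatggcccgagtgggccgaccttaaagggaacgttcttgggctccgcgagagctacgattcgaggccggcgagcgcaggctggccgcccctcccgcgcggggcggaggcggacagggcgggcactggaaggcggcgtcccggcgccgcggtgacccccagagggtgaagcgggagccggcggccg
The internal window holds 3 matches, all before the start site, and the upstream window holds none. Of 32851 RefSeq windows of the same length, 61.3% hold at least 1 match on either strand and 9.42% hold at least 3, so a match alone is common. TGANTCA, the AP-1 motif, which can lie beside NFAT sites, occurs once in the internal window, searched on both strands and not overlapping a GGAAA match, once in 1 of the 3 Rcan2 windows and in 7.81% of all windows. Of the other genes, Ppp3cb, which did not pass, had 4 matches to GGAAA in its window, where 2.65% of all windows hold at least 4. Rcan2 had 2 in 1 of its 3 windows, Nfatc3 had 1 in 1 of its 2, Camk2d had 1, and Camk2b and Ppp3r1 had none. Windows were found for 7 of the 10 genes, and not for Camk2a, Camk2g and Ppp3ca. A match is a description of the letters and shows no binding.

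Rcan1 measured 106, 106, 168 and 93.2 CPM in cKO libraries, against 63.5, 64.6, 70.3 and 85.0 CPM in controls. All cKO libraries lay above all controls, and the female cKO library (replicate 3) stood well above the other cKO libraries. The means were 118 ± 33.5 CPM in cKO and 70.8 ± 9.91 CPM in controls (SD, n = 4 each). The gene rose 1.67-fold, with a log2 fold change of 0.74 (standard error 0.17) and an adjusted p of 0.0095 (edgeR). An exact two-sided permutation test over the 8 libraries gave p = 0.0286, the smallest value that 4 against 4 can give. Without cKO replicate 3 the log2 fold change was 0.52 and the call held (adjusted p = 0.0089), and in male libraries alone it was also 0.52 (adjusted p = 0.0139). The counts are per gene, so transcripts of the different starts were not told apart, and none of the gene's annotated 50-base stretches is shared with another gene.

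Rcan2, which encodes a second calcineurin-binding regulator, did not pass. It measured 723, 693, 697 and 659 CPM in cKO libraries, against 698, 695, 715 and 825 CPM in controls. The groups overlapped in part, with cKO higher in 4 of the 16 pairs of a cKO and a control library. Control replicate 4 was the highest library. The log2 fold change was -0.08 with a 95% interval of -0.26 to 0.10 (adjusted p = 0.542, edgeR), so the interval reaches neither the fall of Camk2a nor the rise of Rcan1. Per kilobase of annotated exon, Rcan2 was the highest of the 10 genes in both genotypes, at 158 ± 5.99 RPKM in cKO and 168 ± 14.2 RPKM in controls (SD, n = 4 each). Rcan1 had 38.3 ± 10.9 RPKM in cKO and 23.0 ± 3.21 RPKM in controls on the same scale.

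Among the kinase genes, Camk2a, on chromosome 18 (60925618 to 60988152), encodes the alpha subunit, and in striated muscle the same gene also gives an anchoring protein without kinase activity. It measured 39.7, 52.4, 53.5 and 46.5 CPM in cKO libraries, against 89.2, 77.6, 99.6 and 84.8 CPM in controls. The highest cKO library was below the lowest control. The means were 48.0 ± 6.38 CPM in cKO and 87.8 ± 9.20 CPM in controls (SD, n = 4 each). Camk2a fell 1.83-fold, with a log2 fold change of -0.87 (standard error 0.11) and an adjusted p of 0.00031 (edgeR), and the exact permutation p was again 0.0286. Its log2 fold change was -0.86 in male libraries alone. The counts do not separate kinase transcripts from those of the anchoring protein.

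Camk2b, which encodes the beta subunit, was the lowest kinase gene per kilobase. It had 22.1, 31.5, 27.3 and 31.8 CPM in cKO libraries, against 25.7, 23.6, 13.0 and 26.7 CPM in controls. The groups overlapped, and the female control (replicate 3) was far below the other libraries. The log2 fold change was 0.35 with a 95% interval of -0.09 to 0.78 (adjusted p = 0.262, edgeR), and it was 0.15 without that control library.

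Camk2d, the delta subunit gene, had the most counts of the kinase genes. It measured 271, 263, 276 and 270.4 CPM in cKO libraries, against 273, 289, 323 and 284 CPM in controls. Only cKO replicate 3 lay above any control, and the cKO libraries were closer together than the controls. The log2 fold change was -0.11 with a 95% interval of -0.28 to 0.05 (adjusted p = 0.333, edgeR), so a fall of the size seen for Camk2a lies outside the interval. These counts cover all splice forms of Camk2d together, and transcript isoforms were not analysed here.

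Camk2g, the gamma subunit gene, measured 89.4, 101, 88.2 and 98.2 CPM in cKO libraries, against 88.0, 89.0, 79.6 and 88.0 CPM in controls. Of the 16 pairs of a cKO and a control library, cKO was higher in 15, with cKO replicate 3 below control replicate 2. The log2 fold change was 0.13 with a 95% interval of -0.04 to 0.30 (adjusted p = 0.278, edgeR). None of the 50-base stretches of the annotated transcripts of any of the 10 genes is found in another of them, and how the authors' counting treated reads with mismatches is not known.

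The make-up of CaMKII transcripts was set out as each gene's share of the summed RPKM of the kinase genes, as a description without a test. Camk2a made up 15.7%, 18.5%, 19.8% and 16.8% in cKO libraries, against 29.4%, 26.2%, 32.1% and 27.9% in controls. Camk2g made up 40.6 ± 1.71% in cKO and 33.1 ± 2.23% in controls (SD, n = 4 each), and these groups did not overlap either. Camk2d was at 33.2 ± 2.11% in cKO and 32.0 ± 2.02% in controls, and Camk2b at 8.49 ± 0.99% in cKO and 6.01 ± 1.75% in controls. The sum itself was 36.3 ± 1.80 RPKM in cKO and 40.6 ± 0.76 RPKM in controls. Which kinase gene is highest rests on the length used: with the longest annotated transcript in place of all annotated exons, Camk2d held 53.9 ± 2.42% in cKO and 53.3 ± 2.56% in controls, and Camk2a 10.6 ± 1.18% in cKO and 17.8 ± 1.48% in controls. Shares within a sum move together, so a lower share of Camk2a raises the other shares.

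**Figure D2:**
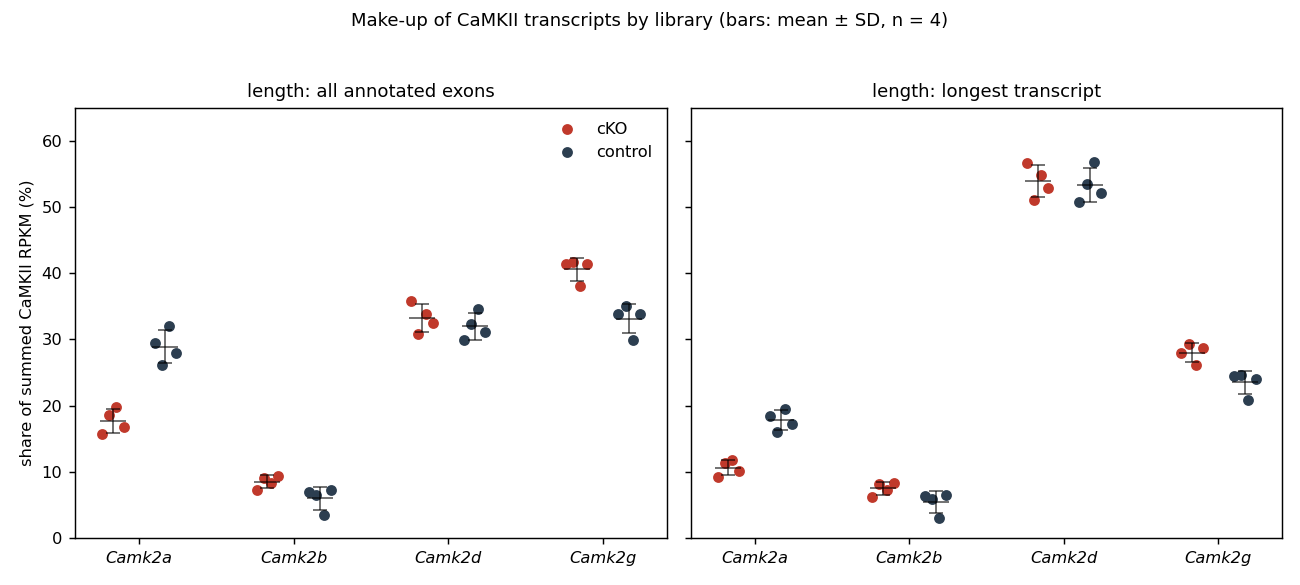
Share of each kinase gene in the summed CaMKII RPKM, in percent, by library, with lengths from all annotated exons (left) or the longest transcript (right). Bars are the mean and SD of 4 libraries, with cKO to the left of control at each gene. The Camk2a share is lower in all cKO libraries with either length, while the Camk2d share overlaps between genotypes.

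The calcineurin subunit genes did not pass the threshold. Ppp3cb, the beta form of the catalytic subunit, measured 137, 143, 143 and 133 CPM in cKO libraries, against 148, 153, 164 and 157 CPM in controls. All cKO libraries lay below all controls, as for 11.8% of all tested genes. The log2 fold change was -0.16 ± 0.07 (standard error, unadjusted p = 0.038, adjusted p = 0.131, edgeR), and the exact permutation p was 0.0286. Including Camk2a and Rcan1, 3 of the 10 genes had groups that did not overlap, where 23.5% of all tested genes did.

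Ppp3ca, the alpha form of the catalytic subunit, had 119, 128, 126 and 121 CPM in cKO libraries, against 109, 126, 126 and 128 CPM in controls. Its log2 fold change was 0.01 with a 95% interval of -0.15 to 0.18 (adjusted p = 0.937, edgeR). Ppp3r1, the regulatory B subunit, had 120.4, 125, 127 and 119.9 CPM in cKO libraries, against 110.3, 124, 126 and 128 CPM in controls. Its log2 fold change was 0.01 with a 95% interval of -0.15 to 0.17 (adjusted p = 0.928, edgeR). For both genes the groups overlapped, with control replicate 1 the lowest library, and the highest cKO value of Ppp3ca lay just above the highest control. Ppp3r1 shares 462 exonic bases with Wdr92 on the same strand, and 13.0% of its 50-base stretches are also in that gene, which had at most 386 counts in a library, so its counts are somewhat uncertain.

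The catalytic genes were also set against each other as shares of their summed RPKM, including Ppp3cc, the third catalytic gene. Ppp3ca held 30.9 ± 0.38% in cKO and 28.9 ± 1.002% in controls, and Ppp3cb held 39.4 ± 1.04% in cKO and 41.6 ± 0.78% in controls (SD, n = 4 each). The genotypes did not overlap in either share, though the shifts were small, at 1.95 and -2.25 percentage points. The share of Ppp3cc was 29.7 ± 1.32% in cKO and 29.4 ± 0.45% in controls, and the groups overlapped.

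Nfatc3, an NFAT factor that calcineurin acts on, measured 69.3, 63.7, 63.3 and 57.2 CPM in cKO libraries, against 73.2, 72.0, 57.9 and 79.1 CPM in controls. The groups overlapped because the female control (replicate 3) was low, while the other controls lay above all cKO libraries. The log2 fold change was -0.15 with a 95% interval of -0.37 to 0.07 (adjusted p = 0.331, edgeR). Over single left-out libraries it ran from -0.24 without the female control (adjusted p = 0.079, edgeR) to -0.10 without control replicate 4 (adjusted p = 0.58, edgeR). Nfatc3 overlaps 219 exonic bases of Esrp2 on the opposite strand, which had at most 33 counts in a library.

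In order of RPKM over all annotated exons, cKO ventricles had Rcan2 first, then Rcan1 and Ppp3r1, which overlapped, then Ppp3cb and Camk2g, which overlapped, then Ppp3ca and Camk2d, which overlapped. Camk2a (6.43 ± 0.86 RPKM) and Nfatc3 (5.41 ± 0.42) followed with overlapping ranges, and Camk2b (3.09 ± 0.50) was last (SD, n = 4 each). Control ventricles had Rcan2, Ppp3r1 (37.8 ± 2.48), Rcan1 and Ppp3cb (17.6 ± 0.79) in separate ranges. Camk2g, Camk2d, Ppp3ca and Camk2a followed between 13.5 and 11.8 RPKM with ranges that overlapped from each to the next, and then Nfatc3 (6.02 ± 0.77) and Camk2b (2.43 ± 0.69). With the longest transcript as length, Camk2d moved up to the third place in cKO (48.9 ± 1.02 RPKM) and the second in controls (52.9 ± 3.95 RPKM).

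The female libraries carried the extreme values of Rcan1 and Camk2b, so the effect of genotype was also compared between the sexes in a fit with an interaction term. With 1 female library per genotype, this assumes that females vary like males. The female effect, the difference of 1 cKO and 1 control library, exceeded the male effect by 0.74 on the log2 scale for Rcan1. For Camk2b it did so by 0.90. Neither passed, and the interaction was called for 0 of the 16051 genes, while 5.48% of them had an unadjusted p under 0.05. For Camk2a the difference was -0.03.

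The genes most like Camk2a over the 8 libraries, by the root mean square difference of log2 CPM centred on each gene's mean, were Cacnb2 (0.089), Asb15 (0.10) and Fdft1 (0.11). Asb15, a muscle ankyrin-repeat protein, measured 78.8 ± 7.53 CPM in cKO and 147 ± 23.8 CPM in controls, and Fdft1, the squalene synthase, measured 33.1 ± 1.92 CPM in cKO and 59.4 ± 8.55 CPM in controls (SD, n = 4 each). For Rcan1 they were Spire1 (0.11), Ppip5k1 (0.13) and Synm (0.13). Synm, the intermediate filament protein synemin, measured 50.01 ± 14.9 CPM in cKO and 28.6 ± 2.24 CPM in controls. Spire1, an actin nucleator, measured 20.0004 ± 3.52 CPM in cKO and 12.4 ± 2.07 CPM in controls. This likeness was searched among 14033 genes and describes these libraries only.

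The rest of the pathway was followed in 6 lists with 55 genes, of which 51 were tested. Of these, 3 rose and 6 fell, and the median log2 fold change was -0.07. The 9 called genes are a share near the 19.3% called among all tested genes (9.64% in each direction), whose median was 0.0053. The falls were all in 1 list, the substrates of CaMKII with the class IIa HDAC and MEF2 genes, where 6 of 11 fell and none rose, with a median log2 fold change of -0.27. Cacnb2, a calcium channel subunit, measured 73.2, 82.9, 91.1 and 87.3 CPM in cKO libraries, against 139, 129.5, 171 and 142 CPM in controls. It fell with a log2 fold change of -0.80 (standard error 0.10, adjusted p = 0.00032, edgeR). Mef2a, a transcription factor held in check by class IIa HDACs, measured 331, 331, 325 and 308 CPM in cKO libraries, against 446, 432, 456 and 453 CPM in controls.

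The genotypes were well apart for Mef2a, which fell with a log2 fold change of -0.46 (adjusted p = 0.00072, edgeR). Ryr2, the calcium release channel of the sarcoplasmic reticulum, fell with a log2 fold change of -0.68. The calcium channel gene Cacna1c and the deacetylase gene Hdac9 also fell, with log2 fold changes of -0.47 and -0.27, and were named after their values were seen. Hdac9 missed the threshold without any 1 of 7 libraries, the exception being control replicate 4, and in male libraries alone (adjusted p = 0.118, edgeR). Counting these, its call was lost in 11 of 19 other settings. Pln, Hdac4, Hdac5, Mef2c and Mef2d, the genes of the list that did not pass, had log2 fold changes of -0.21 to -0.08. Several genes of this list are made mostly by cardiomyocytes. Of the 10 cardiomyocyte markers, Tnni3, Ckm and Ryr2 fell. The other 7 did not pass, at log2 fold changes of -0.34 to 0.02, and the median of the 10 was -0.21. Ryr2 and Pln are in both lists. The part of cardiomyocyte content was not tested.

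**Figure D3:**
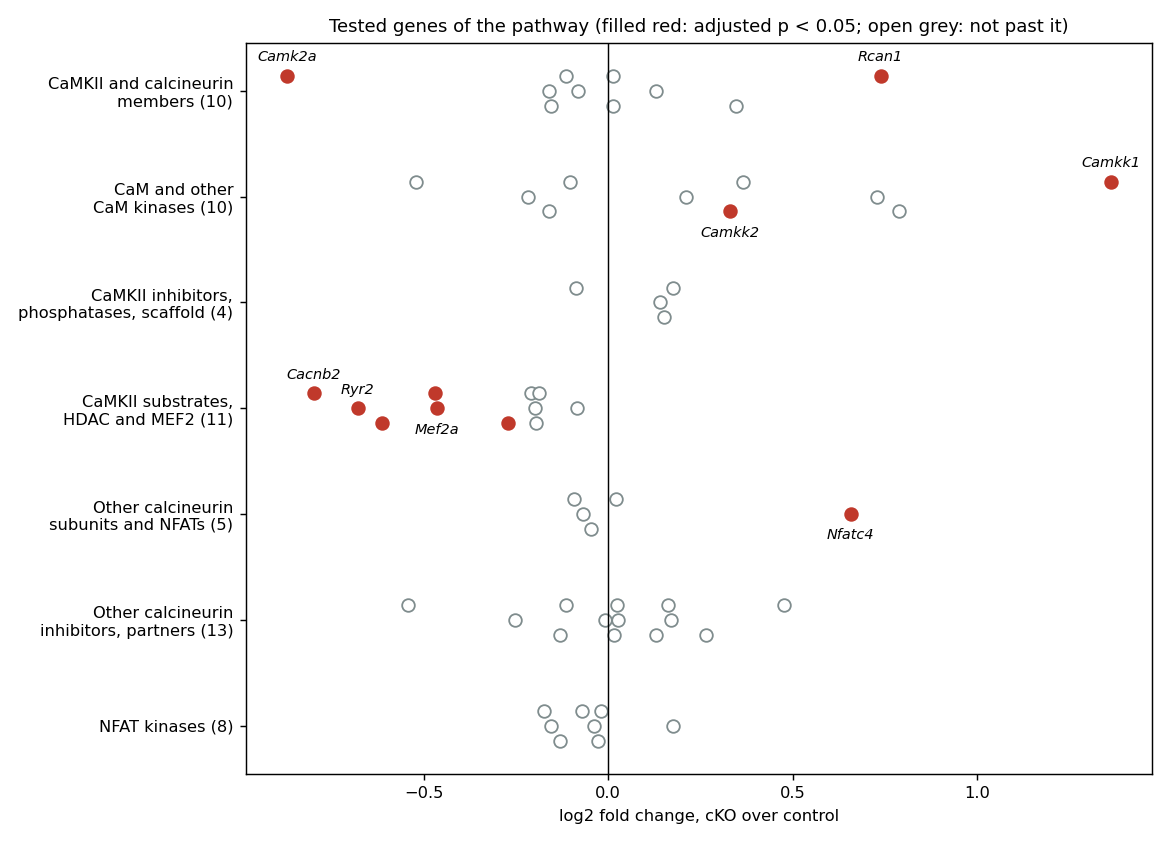
Log2 fold change, cKO over control, of the 10 CaMKII and calcineurin genes and of the 51 tested genes of the 6 other pathway lists. Each point is a gene, and filled red points passed an adjusted p of 0.05, with names for those of the 10 genes and for up to 3 per list. The falls of other genes sit in the list of CaMKII substrates, HDAC and MEF2 genes, and Camkk1, Camkk2 and Nfatc4 rose.

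Calmodulin and the other calmodulin-dependent kinases included 2 of 10 tested genes that rose and none that fell, with a median log2 fold change of 0.27. Of all tested genes 9.64% rose, and their median was 0.0053. Camkk1, a kinase that activates CaMKI and CaMKIV, measured 3.73, 4.35, 5.42 and 3.91 CPM in cKO libraries, against 1.54, 2.01, 1.35 and 1.88 CPM in controls. The groups lay far apart, and it rose 2.57-fold from low counts of 32 to 41 in controls (log2 fold change 1.36, standard error 0.21, adjusted p = 0.00097, edgeR). Camkk2, its paralog, had 29.8, 29.6, 35.8 and 28.5 CPM in cKO libraries, against 25.8, 25.5, 26.6 and 20.5 CPM in controls. It rose with a log2 fold change of 0.33 that was just past the threshold (adjusted p = 0.0487, edgeR) and missed it without any 1 library except control replicate 3. Counting these, the call of Camkk2 was lost in 10 of 19 other settings.

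Nfatc4, another calcineurin-regulated NFAT factor, was the 1 gene to pass among 5 tested calcineurin subunits and NFAT factors, with a list median log2 fold change of -0.05. Of all tested genes, 19.3% passed. It measured 9.23, 8.26, 9.65 and 8.85 CPM in cKO libraries, against 6.25, 5.73, 5.85 and 4.96 CPM in controls. All cKO libraries were above all controls, and it rose 1.58-fold (log2 fold change 0.66, standard error 0.13, adjusted p = 0.0040, edgeR). None passed among 4 CaMKII inhibitors, phosphatases and scaffold genes (median 0.15), 13 other calcineurin inhibitors, anchors and partners (median 0.02) or 8 NFAT kinases (median -0.05). The CaMKII inhibitor gene Camk2n1 had a log2 fold change of 0.18 (adjusted p = 0.135, edgeR), and Rcan3 had 0.02 (adjusted p = 0.925, edgeR).

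Markers of neurons were looked at because Camk2a and Camk2b are abundant in brain. Of 9 neuronal markers 4 were tested, and Uchl1 rose (log2 fold change 1.73) while Dbh, the noradrenaline-forming enzyme of sympathetic nerves, fell (-2.21). The call of Uchl1 was lost with robust dispersions (adjusted p = 0.058, edgeR), and its log2 fold change was 1.17 without cKO replicate 3. Dbh had low counts, 15 to 23 in cKO libraries and 60 to 87 in controls. Snap25 had no counts in cKO libraries and at most 4 in a control library, and Syt1 and Rbfox3 had at most 4 and 5 counts in any library. Th had 1 to 10 counts in cKO libraries and 0 to 2 in controls, and Prph had 0 to 11 and 0 to 6. The source of the Dbh counts was not tested. The marker sums were 23.8, 24.5, 53.4 and 22.8 CPM in cKO libraries, against 17.4, 13.2, 17.1 and 19.02 CPM in controls, of which Uchl1 made up most in cKO. The neuronal sums did not overlap between genotypes, and the highest was in cKO replicate 3, the library with the highest Rcan1. Skeletal muscle markers summed to 11.7 to 43.7 CPM in cKO libraries and to 5.26, 9.99, 5.64 and 164 CPM in controls, with none of 5 tested genes called. Control replicate 4 stood out in these, and without it the log2 fold change was -0.89 for Camk2a and 0.83 for Rcan1. Of 5 Schwann cell markers 2 rose, and their sums did not overlap, at 36.0 to 37.4 CPM in cKO libraries and 22.7 to 25.5 CPM in controls. Macrophage markers had 1 of 7 higher, and their sums overlapped. Endothelial markers had 1 of 8 higher, smooth muscle and pericyte markers 1 higher and 1 lower of 8, and none of 3 tested atrial markers passed. Of all tested genes, 9.64% were called higher and 9.64% lower. As single genes, 11.8% of them lay higher in all cKO libraries than in all controls.

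Over single left-out libraries the log2 fold change of Camk2a was -0.93 to -0.79 and that of Rcan1 was 0.52 to 0.83. Both calls held under each of the 19 other settings run for them, and none of the other 8 genes passed in any of these settings.

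**Figure D4:**
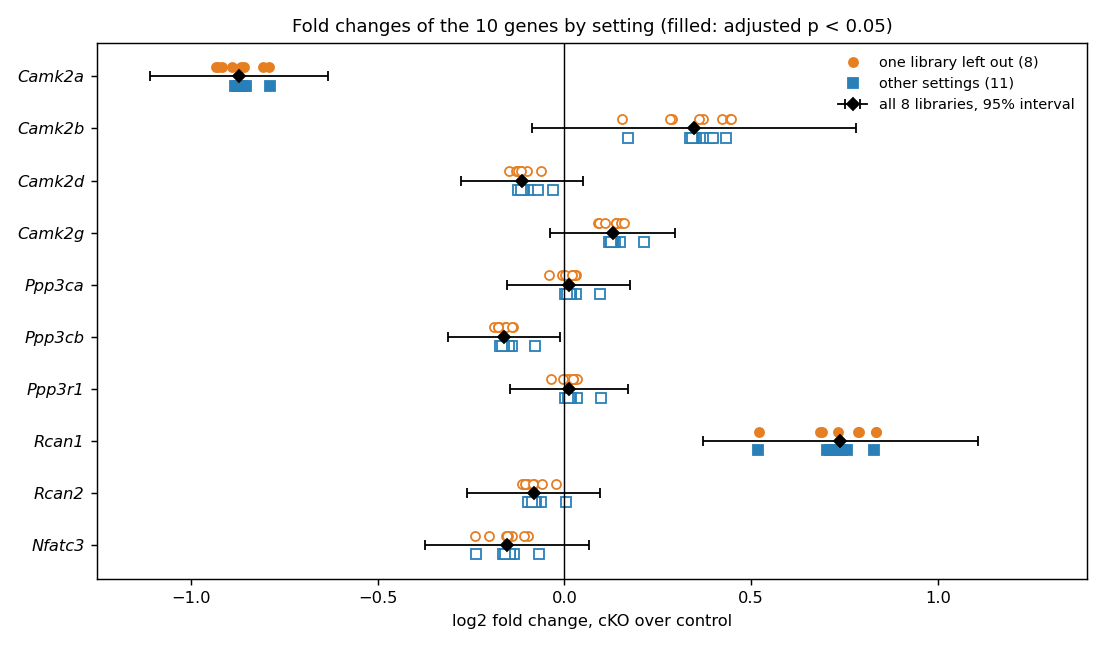
Log2 fold change, cKO over control, of the 10 genes with all 8 libraries (diamond, with its 95% interval), with 1 library left out in turn (circles) and in the other settings (squares). Filled circles and squares passed an adjusted p of 0.05. Camk2a stays between -0.93 and -0.79 and Rcan1 between 0.52 and 0.83, and the circles and squares of the other genes are open.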

How the data were processed

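RNA of heart ventricle was made into stranded mRNA libraries, per the labels' protocols. The authors deposited whole-number counts per gene symbol, 1 column per library. Per the submitters' processing notes, the builds were GRCm38 and mm10 and the tools were HISAT2 2.0.4, FastQC 0.11.4, edgeR 3.30.3 and featureCounts 1.6.0, in no stated order. How strand and multi-mapped reads were treated is not given in the sources. Of 54132 rows, 24 carried a number in place of a symbol and were left out (0.115% to 0.132% of counts).

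The counts were tested with edgeR 4.0.16 (R 4.3.3): genotype as the only term, TMM, filterByExpr defaults and Benjamini-Hochberg adjustment over 16051 genes, two-sided. A positive fold change means higher in cKO. Standard errors were derived from each log2 fold change and its F statistic. The fit was tested on simulated counts for 16051 genes, with changes given to genes drawn at random. It recovered 55.2% of 67 genes changed 1.5-fold, 76.1% of 67 changed 2-fold and 93.9% of 66 changed 4-fold, with 7 false calls. Log2 CPM for likeness used a prior count of 2. Lengths and positions are from GENCODE M21 (GRCm38), and start-site windows from RefSeq (GRCm38.p6).

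The 10 genes and the lists were chosen with earlier results of these data known. The rule for named genes took the 10, up to 3 called genes with the smallest adjusted p per list, and the 3 genes most like each called gene of the 10. Ppp3cc, Cacna1c, Hdac9, Pln, Hdac4, Hdac5, Mef2c, Mef2d, Camk2n1, Rcan3 and the marker genes fall outside it and were named after their values were seen. Some members of the pathway lists are counted but not reported here by name. The labels do not say whether animals were pooled, so the p-values reflect only how these libraries vary, which may be partly technical. None of them was a duplicate (chi-square per degree of freedom 7.09 to 31.2). Alternatives were other scalings, filters, tools, sex as a covariate, fewer libraries and other gene lengths, with DESeq2 1.42.0 and limma 3.58.1.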

Additional observations from a re-analysis of the deposited data

Results flagged for a closer look

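In 4 of the 20 groups of 4 libraries checked, 2 for each of the 10 genes, a library stood apart by Dixon's test, in which chance alone flags about 1 group in 20. Rcan1 reached 168 CPM in cKO replicate 3, the female cKO library, against 93.2 to 106 CPM in the other cKO libraries, and its call held without that library. Among controls, Camk2g was lowest in the female library at 79.6 CPM, Ppp3ca was lowest in replicate 1 at 109 CPM, and Rcan2 was highest in replicate 4 at 825 CPM.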

How the results depend on the processing

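Among the 10 genes, the count called was 1 higher and 1 lower in all 20 alternatives, which included DESeq2, limma-voom and an adjusted p under 0.01. Small differences changed sign with no call. Over single left-out libraries Ppp3ca ran from -0.042 to 0.032 and Ppp3r1 from -0.036 to 0.033 on the log2 scale, and Rcan2 was at 0.0056 with total counts as the only scaling. The cause was not tested. That scaling gave 1021 lower genes among all tested, against 1547, and put 66.1% of the called genes higher, against 50.02%. An adjusted p under 0.01 left 808 higher and 817 lower genes, by its construction. With the longest transcript as length the Camk2a share differed by -7.17 percentage points and the Camk2g share by 4.51, and with plain counts by -7.07 and 3.70, against -11.2 and 7.46 with all annotated exons, since Camk2d has far more annotated exon sequence than its longest transcript. The pathway lists, an alternative added after seeing the data, gave 2 to 4 higher and 5 to 7 lower genes. No paired analysis was possible because the labels give no library number that is shared between genotypes. With 4 libraries per genotype, the 95% intervals of the genes that did not pass give the differences that the counts leave possible.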
